A study of Mus musculus with 6 samples.

Results

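Of the 6 RNA-seq libraries of the study, 4 enter the comparison described here, which asks how the transcriptome of EpH4 cells changed after 7 days with the cytokine TGFβ1. EpH4 is a near-normal mouse mammary epithelial cell line grown in culture. The 2 E libraries come from untreated cells and the 2 M libraries from cells given TGFβ1 for 7 days. All cells grew in the same serum- and insulin-containing medium, and the dose of TGFβ1 is not given in the labels. The remaining 2 libraries, from cells returned to medium without TGFβ1 for 4 days (RE), only contribute to the estimate of the spread. The libraries were chosen by their labelled state, and the values below are for the 17428 genes of the deposited table, of which 13893 had enough coverage to be tested. The replicates are biological replicates of 1 line, so they describe EpH4 and not mammary epithelium in general, and in such bulk RNA fewer expressing cells and less RNA per cell cannot be told apart.

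TGFβ1 binds a pair of receptor kinases at the cell surface, which phosphorylate Smad2 and Smad3. These enter the nucleus with Smad4 and act at target genes together with other transcription factors. In epithelial cells a sustained signal starts an epithelial-to-mesenchymal transition (EMT), in which factors of the Snail and Zeb families repress epithelial genes, junctions and apical polarity are dismantled, and the cells make actin stress fibres, integrins and an interstitial matrix. In the mammary gland the same cytokine restrains ductal growth and is known for driving invasion of transformed cells.

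Expression is given as normalized coverage, that is sequenced bases per gene in ppm of the library's bases after TMM scaling, and differences as log2 fold changes of M over E. The libraries held 38634876 and 35782513 reads' worth of 50 bases in E and 47928557 and 45341637 in M. A gene was called raised or lowered if its log2 fold change passed 1 in either direction and the limma test gave an adjusted p under 0.01. Coverage at or under 3 reads' worth, 0.0694 to 0.0781 ppm in these 4 libraries, was taken as the floor. The E replicates differed more than the M replicates, with an SD of the log2 difference across genes of 0.56 against 0.32, and 1049 against 274 genes lay over 2-fold apart. Part of this followed transcript length. With the genes in 5 bins of equal size from the shortest to the longest transcripts, the median of E replicate 2 minus E replicate 1 went from −0.32 to 0.45 on the log2 scale, that of M minus E from −0.33 to 0.40, and that of M replicate 2 minus M replicate 1 stayed between −0.065 and 0.013. With each library's trend on length and GC content removed, the medians of M minus E lay between 0.0036 and 0.055. The removal itself produces such flat medians, so they do not show where the trend came from. The part of the trend in single results was not tested, and the trend-free median of a gene group is given where it differs from the main one by over 0.1.

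**Figure D1:**
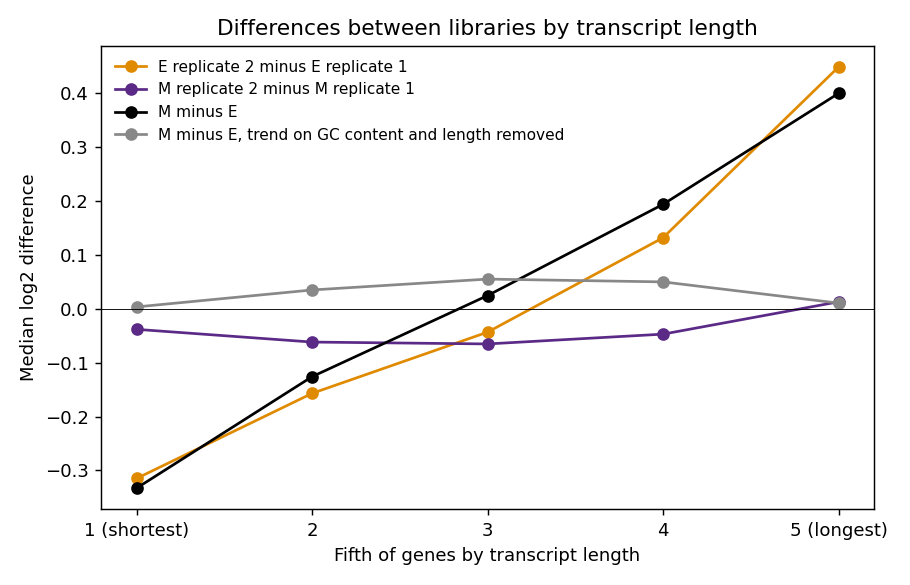
Median log2 difference between libraries for each of 5 equal bins of genes by transcript length. The M minus E line runs from −0.33 to 0.40 and follows the line between the E replicates, the M replicates stay near 0, and the grey line after removal of the trend stays between 0.0036 and 0.055. The removal itself flattens the grey line.

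Both states expressed epithelial genes. Of 15 markers of mammary epithelium, 12 passed the coverage filter, of which 6 were lowered and 1 raised in M (median log2 fold change −0.72, and −0.56 with 4 lowered after removal of the length trend), where 8.39% and 8.58% of all genes tested were. With either M library left out, 3 were lowered and 0 raised. The keratins *Krt7*, *Krt8*, *Krt14* and *Krt18* and the E-cadherin gene *Cdh1* were well covered in all 4 libraries. *Krt5* and *Krt19*, both of them markers, were at or near the floor (*Krt5* at 0.208 and 0.0781 ppm in the E libraries and 0.168 and 0.0476 ppm in the M libraries, *Krt19* at 0.162 and 0.156 ppm in E), and *Epcam* and *Esrp1* were not analysed here. Markers of other cells were mostly absent. Of 12 blood-cell markers 3 were tested, their list summed to 7.08 and 10.9 ppm in E and 33.8 and 37.7 ppm in M, and the defining genes *Ptprc* and *Cd3e* were at the floor in every library. *Csf1r*, the receptor for the macrophage growth factor CSF1, was the member that rose, from 1.55 and 1.27 to 25.8 and 29.9 ppm (log2 fold change 4.21, SE 0.24, adjusted p = 2.4e-05 by limma). Of 10 markers of endothelium and adipocytes, 2 were tested and *Cdh5* was raised, from 0 in both E libraries to 2.33 and 2.07 ppm, at least 29.9-fold, though it was not tested with either M library left out, while *Kdr*, *Vwf*, *Adipoq* and *Lep* were at the floor. Of 9 markers of myoepithelium, 8 were tested and *Acta2* and *Krt14* were raised, of which 1 remained raised with either M library left out. The part of such cells in the results was not tested. The median log2 fold changes of the blood-cell, myoepithelium and fibroblast markers were 0.39, 0.29 and 0.41. Without the length trend they were 0.65, 0.17 and −0.021. Among 12 fibroblast markers, 7 of them tested, *Col3a1* and *Pdgfrb* were raised and *Dcn* and *Clec3b* lowered, and the list summed to 90.2 and 118 ppm in E and 495 and 450 ppm in M, nearly all of it *Pdgfrb*, with *Thy1* at the floor in all 4 libraries. Other settings ended the calls for *Dcn* under 5 of the 18 alternatives that tested it (adjusted p = 0.0396 without M replicate 1, adjusted p = 0.0339 without M replicate 2) and *Clec3b* under 11 of the 18 alternatives that tested it (adjusted p = 0.068 without M replicate 1, adjusted p = 0.0223 without M replicate 2, adjusted p = 0.0262 without RE replicate 1, adjusted p = 0.0253 without RE replicate 2), which leaves 0 lowered with either M library left out.

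After 7 days of TGFβ1, 1192 genes were raised (8.58% of those tested) and 1166 lowered (8.39%). These shares are the background for the counts of every gene list below. The lists were chosen with earlier results of these data known, so their shares against this background are descriptions and not tests. The changes reached far in both directions. Over 4-fold, 442 genes were raised and 491 lowered, and over 16-fold 85 and 88. The raised genes together went from 60479 to 205750 ppm of coverage and the lowered genes from 42487 to 12821 ppm, so that about equal numbers of genes stood for very unequal coverage. Coverage counts bases, so longer transcripts weigh more, and these sums are not amounts of RNA. In the bin of longest transcripts 15.9% of genes were raised and 5.86% lowered, in the shortest 4.01% and 10.8%. Over all genes tested the median log2 fold change was 0.0013. Another 969 genes had an adjusted p below 0.01 within 2-fold, and 822 passed 2-fold without passing the p threshold, 273 of them with E replicates over 2-fold apart. Without M replicate 1 the counts were 453 raised and 492 lowered, without M replicate 2 they were 483 and 519, and without E replicate 2 they were 1889 and 1458. Scaling by library totals gave 802 raised and 1829 lowered genes, 30.5% raised instead of 50.6%, and moved the median of all genes to −0.29. None of these settings called a gene in the opposite direction.

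**Figure D2:**
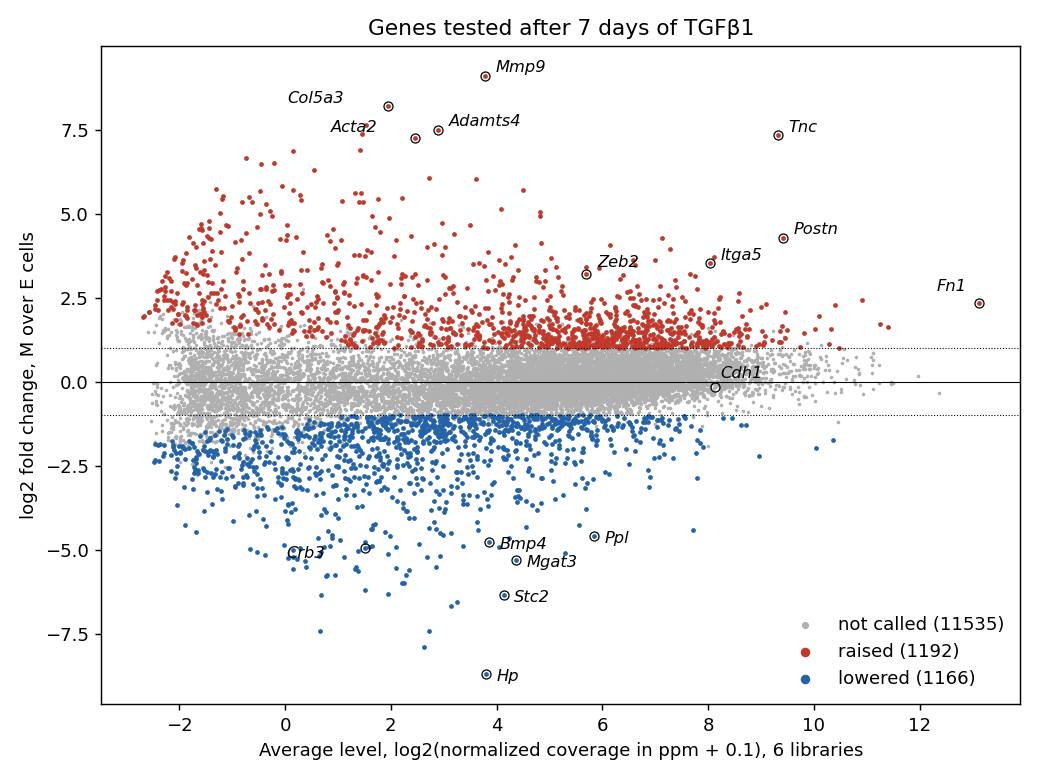
Log2 fold change of M over E cells against the average level, log2 of the coverage in ppm + 0.1 over 6 libraries, for the 13893 genes tested. Raised genes (1192, red) and lowered genes (1166, blue) reach log2 fold changes of 9.10 (*Mmp9*) and −8.71 (*Hp*), dotted lines mark 2-fold, and *Cdh1* lies on the line of no change.

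The 4 largest rises among genes of at least moderate level (average log2 of 2 or more) were those of *Mmp9*, *Adamts4*, *Tnc* and *Acta2*. *Mmp9*, a gelatinase, was at 1.42 and 1.74 ppm in the E libraries and 966 and 866 ppm in the M libraries (log2 fold change 9.10, SE 0.23, adjusted p = 7.34e-06 by limma). *Adamts4*, a protease that cleaves aggrecan, was at 0.652 and 1.24 ppm in the E libraries and 190.1 and 173 ppm in the M libraries (log2 fold change 7.50, SE 0.27, adjusted p = 9.2e-06 by limma). *Tnc*, the matrix protein tenascin C, was at 58.7 and 115 ppm in the E libraries and 13040 and 13407 ppm in the M libraries (log2 fold change 7.33, SE 0.29, adjusted p = 9.34e-06 by limma). In all 3 genes the lowest M library was over 100 times the highest E library. Smooth muscle actin *Acta2* followed with 0.252 and 0.680 ppm in the E libraries and 75.6 and 82.7 ppm in the M libraries (log2 fold change 7.24, SE 0.34, adjusted p = 1.38e-05 by limma). The others of the 12 largest rises were the T-type calcium channel gene *Cacna1g*, the collagen receptor subunit *Itga2*, the calcium pump *Atp2b4*, the type IV collagen chains *Col4a3* and *Col4a4*, the CCN family gene *Wisp1*, *Adamtsl3* and the hyaluronan synthase *Has2*, with log2 fold changes from 6.05 for *Cacna1g* down to 4.71 for *Col4a4*. All 12 were called under each of the 19 alternative settings.

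The largest falls were more mixed and held secreted and signalling proteins. *Hp*, the haemoglobin scavenger haptoglobin, was at 163 and 54.1 ppm in the E libraries and 0.0671 and 0.200 ppm in the M libraries (log2 fold change −8.71, SE 0.50, adjusted p = 2.61e-05 by limma), so the E replicates differed 3-fold and the M replicates were close to the floor. *C130090K23Rik* was at the floor in M and at least 549-fold higher in E. *Stc2*, a secreted glycoprotein, was at 109 and 157 ppm in the E libraries and 1.56 and 1.46 ppm in the M libraries (log2 fold change −6.35, SE 0.22, adjusted p = 9.2e-06 by limma). Others among the 12 largest falls were *AL663091.13*, *Pkhd1l1*, the Ly6 family gene *Ly6d*, the guanine exchange factor *Ngef*, the calcification inhibitor *Mgp*, the sulfotransferase *Sult2b1*, the ectodysplasin receptor *Edar* and the pseudokinase *Trib2*, from −6.67 for *AL663091.13* to −5.50 for *Trib2*.

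Measured by coverage gained, fibronectin led. *Fn1*, a major ligand of integrins in the provisional matrix, was at 2379 and 5276 ppm in the E libraries and 18203 and 17943 ppm in the M libraries (log2 fold change 2.35, SE 0.36, adjusted p = 0.00184 by limma), with E replicates over 2-fold apart and M replicates nearly equal. *Tnc* gained almost as much. Next came the actin crosslinker *Flna*, the endocytic receptor *Lrp1*, thrombospondin 1 (*Thbs1*), fibulin 2 (*Fbln2*) and periostin (*Postn*), with mean gains from 3520 ppm for *Flna* to 2142 ppm for *Postn*. The largest losses of coverage were smaller. The mitochondrial aldehyde dehydrogenase *Aldh2* was at 1594 and 1599.8 ppm in the E libraries and 403 and 405 ppm in the M libraries (log2 fold change −1.98, SE 0.14, adjusted p = 5.79e-05 by limma), and the copper carrier ceruloplasmin (*Cp*) at 1767 and 1280.4 ppm in the E libraries and 524 and 390.1 ppm in the M libraries. The non-muscle myosin *Myh14* fell from 755 and 1079 to 34.8 and 51.4 ppm (log2 fold change −4.41, SE 0.23, adjusted p = 1.84e-05 by limma), and it was followed by *Myo18a*, the choline kinase *Chka*, the lysyl oxidase *Loxl4*, the receptor tyrosine kinase inhibitor *Spry1* and the calcineurin subunit *Ppp3ca*. Calls that did not hold were those of *Fn1* without M replicate 1 (adjusted p = 0.0171) or without M replicate 2 (adjusted p = 0.0163), *Flna* under 5 of the 19 alternatives (adjusted p = 0.026 without M replicate 1, adjusted p = 0.0248 without M replicate 2, adjusted p = 0.0115 without RE replicate 1, adjusted p = 0.0116 without RE replicate 2), *Cp* without M replicate 2 (adjusted p = 0.0114) and *Loxl4* under 5 of the 19 alternatives (adjusted p = 0.0372 without M replicate 1, adjusted p = 0.0329 without M replicate 2, adjusted p = 0.0123 without RE replicate 1, adjusted p = 0.0123 without RE replicate 2).

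Genes known to answer to Smads moved in part. Of 29 tested TGFβ/Smad targets and feedback genes, 11 were raised and 2 lowered, with a median log2 fold change of 0.54 (0.39 without the length trend). *Skil*, a feedback repressor of Smads, was at 48.9 and 74.7 ppm in the E libraries and 264 and 273 ppm in the M libraries (log2 fold change 2.15, SE 0.20, adjusted p = 0.000186 by limma). The connective tissue growth factor *Ctgf* was at 151 and 201 ppm in the E libraries and 791 and 738 ppm in the M libraries (log2 fold change 2.13, SE 0.16, adjusted p = 7.96e-05 by limma). In both genes the M libraries lay above the E libraries without overlap. The latent TGFβ binding protein *Ltbp2*, the parathyroid-hormone-like peptide *Pthlh*, the matrix protein *Tgfbi* and the receptor regulator *Pmepa1* were also raised (log2 fold changes 2.51, 3.92, 3.29 and 1.48). The feedback inhibitor *Smad7* was at 24.6 and 27.3 ppm in the E libraries and 38.1 and 45.6 ppm in the M libraries, higher in both M libraries but under the fold threshold (log2 fold change 0.69, SE 0.18, adjusted p = 0.0196 by limma). *Junb* and *Cyr61*, immediate early genes of the pathway, had log2 fold changes of −0.44 and −0.65 and were not called. Of the Id genes, which BMP signals induce, *Id4* was lowered, at 1.51 and 1.29 ppm in the E libraries and 0.0719 and 0.252 ppm in the M libraries (log2 fold change −2.60, SE 0.47, adjusted p = 0.00418 by limma), and *Id1* and *Id2* were at −0.91 and −0.86 and not called, but passed with 1 library left out (log2 fold change −1.31, adjusted p = 9.62e-05 without E replicate 2, and log2 fold change −1.31, adjusted p = 2.69e-06 without E replicate 2). Lowered members numbered 4 without E replicate 2, 0 without M replicate 1 and 1 without M replicate 2, and *Ltbp4* was the other lowered one (−1.23). The call did not hold for *Id4* under 3 of the 18 alternatives that tested it (adjusted p = 0.0347 without M replicate 1) and *Ltbp4* without M replicate 1 (adjusted p = 0.0245) or without M replicate 2 (adjusted p = 0.0142).

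Promoter sequence is shown for the raised target with the largest rise that holds a Smad element and for the one that holds an AP-1 site, AP-1 being a common partner of Smads. The sequences are from RefSeq on GRCm38.p6 and cover 250 bases before to 50 after the start. The Smad element searched was CAGAC or its complement GTCTG, which 49.6% of all 32851 promoters hold, and the AP-1 word was TGANTCA, which is its own complement and occurs in 7.81% of them. Capitals mark only the word by which each gene was chosen, the Smad word in *Tgfbi* and the AP-1 word in *Il11*. The Smad word also occurs in 2 of 2 promoters of *Il11*, where it is left in lower case. *Tgfbi* carries the Smad word 2 times (chr13:56609336-56609635, plus strand), and 1 of 2 promoters of the cytokine gene *Il11*, raised from 0.146 and 0.197 to 0.660 and 1.44 ppm (log2 fold change 2.00, SE 0.42, adjusted p = 0.00808 by limma), carries the AP-1 word (chr7:4778092-4778391, minus strand).
*Tgfbi*: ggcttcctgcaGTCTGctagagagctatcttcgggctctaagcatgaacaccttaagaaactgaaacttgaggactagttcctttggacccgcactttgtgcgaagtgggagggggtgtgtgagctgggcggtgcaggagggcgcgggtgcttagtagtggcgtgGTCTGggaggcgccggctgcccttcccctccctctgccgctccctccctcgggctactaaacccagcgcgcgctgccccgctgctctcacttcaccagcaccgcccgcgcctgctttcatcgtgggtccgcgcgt
*Il11*: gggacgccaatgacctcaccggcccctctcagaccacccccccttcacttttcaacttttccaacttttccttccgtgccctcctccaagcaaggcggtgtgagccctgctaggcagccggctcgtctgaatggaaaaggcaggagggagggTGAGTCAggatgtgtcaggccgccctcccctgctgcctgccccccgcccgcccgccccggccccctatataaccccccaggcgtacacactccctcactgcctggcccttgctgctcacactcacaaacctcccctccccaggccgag
Such matches are letters in a window and say nothing of binding. The call was lost for *Il11* under 7 of the 16 alternatives that tested it, among them leaving out either RE library. *Il11* was not tested with either M library left out.

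Among ligands and receptors of the family, *Tgfb1*, *Tgfb2* and the activin subunit *Inhba* were raised, and *Bmp4* and the antagonists *Fst* and *Nog* were lowered. Of 29 tested members, 10 were raised and 4 lowered, with a median of 0.46 (0.16 without the length trend, where 9 and 4 were called). *Bmp1*, which is a procollagen C-proteinase rather than a cytokine, was at 104 and 128 ppm in the E libraries and 758 and 795 ppm in the M libraries (log2 fold change 2.75, SE 0.14, adjusted p = 1.84e-05 by limma). The BMP receptors *Acvr1* and *Bmpr2*, the co-receptor endoglin (*Eng*) and the ligand *Tgfb2* were raised by 2.08, 2.21, 1.79 and 1.502 on the log2 scale, and the other raised members were *Acvrl1*, *Bmpr1a* and *Smad5*. *Tgfb1* itself was at 25.7 and 21.5 ppm in the E libraries and 49.5 and 48.1 ppm in the M libraries (log2 fold change 1.05, SE 0.15, adjusted p = 0.00124 by limma), just past the fold threshold. The signalling receptors *Tgfbr1* and *Tgfbr2* did not pass the test (log2 fold changes 0.30 and 0.049), and the betaglycan gene *Tgfbr3* was lowered (−1.39). The sharpest falls were those of the secreted antagonists and a BMP. Follistatin (*Fst*), which traps activin, was at 30.2 and 21.5 ppm in the E libraries and 0.503 and 0.713 ppm in the M libraries (log2 fold change −5.19, SE 0.23, adjusted p = 1.2e-05 by limma), and *Bmp4* at 46.5 and 40.4 ppm in the E libraries and 1.75 and 1.26 ppm in the M libraries (log2 fold change −4.78, SE 0.20, adjusted p = 9.79e-06 by limma). Noggin (*Nog*), an antagonist of BMPs, fell from 1.83 and 1.35 to 0.119 and 0.0971 ppm. *Inhba* was at 27.5 and 46.2 ppm in the E libraries and 96.1 and 116 ppm in the M libraries (limma log2 fold change 1.56, adjusted p = 0.002). Without M replicate 1 or without M replicate 2, 4 members were raised. Among these genes, calls did not hold for *Tgfb1* under 4 of the 19 alternatives (log2 fold change 0.92 without E replicate 2, adjusted p = 0.0225 without M replicate 1, adjusted p = 0.0194 without M replicate 2), *Tgfbr3* without M replicate 1 (adjusted p = 0.0135) or without M replicate 2 (adjusted p = 0.0181), *Inhba* without M replicate 1 (adjusted p = 0.015) or without M replicate 2 (adjusted p = 0.0259), *Bmpr1a* under 8 of the 19 alternatives (log2 fold change 0.9959 without E replicate 2, adjusted p = 0.0187 without M replicate 1, adjusted p = 0.0123 without M replicate 2), *Bmpr2* without M replicate 1 (adjusted p = 0.0203) or without M replicate 2 (adjusted p = 0.0297) and *Smad5* without M replicate 1 (adjusted p = 0.0173) or without M replicate 2 (adjusted p = 0.0125).

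Among EMT transcription factors the Zeb genes rose most. The list had 23 tested members, with 5 raised, 5 lowered and a median of 0.19. *Zeb1*, a repressor of epithelial genes, was at 3.52 and 6.11 ppm in the E libraries and 50.2 and 44.0 ppm in the M libraries (log2 fold change 3.31, SE 0.25, adjusted p = 7.59e-05 by limma), and *Zeb2* at 10.9 and 17.7 ppm in the E libraries and 135 and 121 ppm in the M libraries (log2 fold change 3.20, SE 0.22, adjusted p = 6.07e-05 by limma). In both genes the M libraries lay far above the E libraries. *Snai1*, which encodes Snail, was at 7.85 and 5.11 ppm in the E libraries and 24.3 and 21.3 ppm in the M libraries (log2 fold change 1.83, SE 0.22, adjusted p = 0.000673 by limma). The myocardin-related factor *Mkl1*, a partner of SRF, and *Runx1* were raised by 1.46 and 1.21 on the log2 scale. *Snai2*, at 4.19 and 12.1 ppm in the E libraries and 11.2 and 11.5 ppm in the M libraries, overlapped between states (limma log2 fold change 0.66, adjusted p = 0.239, but log2 fold change 1.41, adjusted p = 2.51e-06 without E replicate 2), and *Twist1* was lower in both M libraries without being called (limma log2 fold change −0.82, adjusted p = 0.0129). The 5 lowered members were the homeobox gene *Msx2*, at 77.6 and 89.3 ppm in the E libraries and 17.1 and 14.1 ppm in the M libraries (log2 fold change −2.42, SE 0.16, adjusted p = 4.42e-05 by limma), the forkhead genes *Foxq1* and *Foxc1* (−2.37 and −2.26), *Snai3* (−1.70) and *Prrx1* (−1.07). The counts of this list moved with single libraries, with 9 raised without E replicate 2 2 without M replicate 1 and 3 without M replicate 2, and 1 lowered with either M library left out. With other settings or fewer libraries, calls were lost for *Snai1* without M replicate 1 (adjusted p = 0.0118), *Snai3* without M replicate 1 (adjusted p = 0.023) or without M replicate 2 (adjusted p = 0.0292), *Mkl1* without M replicate 1 (adjusted p = 0.0249) or without M replicate 2 (adjusted p = 0.0278), *Runx1* under 5 of the 19 alternatives (adjusted p = 0.0173 without M replicate 1, adjusted p = 0.0166 without M replicate 2), *Foxq1* without M replicate 1 (adjusted p = 0.015) or without M replicate 2 (adjusted p = 0.0103), *Foxc1* without M replicate 1 (adjusted p = 0.0122) or without M replicate 2 (adjusted p = 0.0159) and *Prrx1* under 6 of the 19 alternatives (log2 fold change −0.88 without E replicate 2, adjusted p = 0.0155 without M replicate 1, adjusted p = 0.0389 without M replicate 2, adjusted p = 0.0118 without RE replicate 1, adjusted p = 0.0119 without RE replicate 2).

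Factors that keep epithelial identity were mostly lower in M. Of 21 tested epithelial transcription and splicing factors, 11 were lowered and 1 raised, against 8.39% and 8.58% of all genes, with a median log2 fold change of −1.28 (−1.12 without the length trend, where 9 were lowered), and 18 had both M libraries below both E libraries where 35% of all genes did. *Grhl1*, a grainyhead factor of epithelial barrier genes, was at 17.1 and 18.5 ppm in the E libraries and 1.29 and 1.48 ppm in the M libraries (log2 fold change −3.59, SE 0.20, adjusted p = 2.29e-05 by limma). Its relative *Grhl2*, which opposes *Zeb1*, was at 33.5 and 56.5 ppm in the E libraries and 16.1 and 17.4 ppm in the M libraries (log2 fold change −1.37, SE 0.24, adjusted p = 0.00327 by limma), with unequal E replicates. *Klf4*, a Krüppel-like factor of differentiated epithelium, was at 115 and 143 ppm in the E libraries and 18.1 and 20.0 ppm in the M libraries (log2 fold change −2.74, SE 0.15, adjusted p = 2.17e-05 by limma). The Zeb-opposing *Ovol1* and *Ovol2*, the Ets factor *Elf3* and the RNA-binding protein *Rbm47* fell by 2.04, 2.25, 2.70 and 2.01 on the log2 scale. The matriptase inhibitors *Spint1* and *Spint2* were lowered too (−1.16 and −1.28), while matriptase itself (*St14*) had a log2 fold change of −0.91, under the threshold. One member went the other way. *Elf5*, an Ets factor of the luminal alveolar lineage, was near the floor in E and at 2.90 and 2.88 ppm in M (log2 fold change 4.20, SE 0.36, adjusted p = 0.000135 by limma). The luminal factor *Gata3* was higher in both M libraries and short of 2-fold (limma log2 fold change 0.75, adjusted p = 0.00306). Without M replicate 1, 4 members were lowered. Calls were lost for *Grhl2* under 6 of the 19 alternatives (log2 fold change −0.99 without E replicate 2, adjusted p = 0.0347 without M replicate 1, adjusted p = 0.0262 without M replicate 2, adjusted p = 0.0112 without RE replicate 1, adjusted p = 0.0112 without RE replicate 2), *Ovol1* without M replicate 1 (adjusted p = 0.0104), *Ovol2* without M replicate 1 (adjusted p = 0.0135), *Spint1* under 4 of the 19 alternatives (adjusted p = 0.0121 without M replicate 1, adjusted p = 0.0105 without M replicate 2) and *Spint2* under 3 of the 19 alternatives (adjusted p = 0.0104 without M replicate 1).

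Tight junction and polarity genes were lowered in nearly as large a share. Of 33 tested, 16 were lowered and 3 raised, with a median of −1.07 (−0.93 without the length trend, where 16 and 1 were called). *Crb3*, the apical Crumbs protein of epithelia, was at 17.2 and 14.9 ppm in the E libraries and 0.523 and 0.335 ppm in the M libraries (log2 fold change −4.95, SE 0.25, adjusted p = 1.67e-05 by limma), and no other member fell further. *Marveld3*, a tetraspan protein of tight junctions like occludin, fell from 19.0 and 21.2 to 1.38 and 1.94 ppm (log2 fold change −3.54, SE 0.21, adjusted p = 2.78e-05 by limma). Occludin (*Ocln*) itself fell by 2.69 on the log2 scale. *Rab25*, a GTPase of apical recycling, was at 109 and 106 ppm in the E libraries and 7.87 and 11.5 ppm in the M libraries (log2 fold change −3.48, SE 0.19, adjusted p = 2.2e-05 by limma). Among the claudins, which set the selectivity of the barrier, *Cldn7*, *Cldn1*, *Cldn3* and *Cldn4* fell by 1.89, 1.94, 1.35 and 1.07 on the log2 scale. The cytoplasmic plaque did not follow as one. *Tjp3* was lowered (−3.39), and *Tjp1* was at 165 and 381 ppm in the E libraries and 545 and 489 ppm in the M libraries, higher in M but with E replicates over 2-fold apart (limma log2 fold change 1.04, adjusted p = 0.0414, but log2 fold change 1.64, adjusted p = 5.13e-09 without E replicate 2). The polarity adaptor *Pard6b* fell (−1.69) while its relative *Pard6g* rose from 2.95 and 3.95 to 15.4 and 15.7 ppm (log2 fold change 2.16, SE 0.22, adjusted p = 0.00032 by limma). Lowered members numbered 8 without M replicate 1 and 7 without M replicate 2, and raised members 1 with either of them left out and 5 without E replicate 2. Other settings ended the calls for *Cldn3* under 3 of the 19 alternatives (adjusted p = 0.014 without M replicate 2), *Cldn4* under 5 of the 19 alternatives (log2 fold change −0.94 without E replicate 1, adjusted p = 0.0141 without M replicate 1, adjusted p = 0.0188 without M replicate 2) and *Pard6b* without M replicate 1 (adjusted p = 0.0108) or without M replicate 2 (adjusted p = 0.0165).

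Zeb and Snail proteins are known to bind E-boxes, so the promoters of the lowered junction gene and epithelial factor with the largest fall that hold the word CAGGTG or its complement CACCTG are shown with those words in capitals. Of all RefSeq promoters of this length 20.2% hold it. *Crb3* has 4 copies in 1 promoter (chr17:57061951-57062250, plus strand), and *Elf3* has 1 copy (chr1:135258423-135258722, minus strand). Both genes were picked because they hold the word, which says nothing of binding or repression. The Smad word, left in lower case, also occurs in 1 of 2 promoters of *Crb3* and 1 of 1 of *Elf3*.
*Crb3*: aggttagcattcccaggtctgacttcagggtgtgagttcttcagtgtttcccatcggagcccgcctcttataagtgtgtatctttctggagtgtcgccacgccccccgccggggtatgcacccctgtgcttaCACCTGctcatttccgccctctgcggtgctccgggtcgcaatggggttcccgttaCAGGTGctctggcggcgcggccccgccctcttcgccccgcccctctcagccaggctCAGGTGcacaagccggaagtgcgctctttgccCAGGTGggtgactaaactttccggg
*Elf3*: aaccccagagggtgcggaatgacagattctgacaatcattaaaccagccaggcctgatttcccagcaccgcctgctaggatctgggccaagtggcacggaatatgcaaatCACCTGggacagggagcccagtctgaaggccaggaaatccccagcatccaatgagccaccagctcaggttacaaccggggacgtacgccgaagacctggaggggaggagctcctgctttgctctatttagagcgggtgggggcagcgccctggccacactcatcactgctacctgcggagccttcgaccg
A comparison of motif shares between raised and lowered genes was void, because only 74.3% of the genes tested, 73.7% of the raised and 73.2% of the lowered had a promoter in the sequence table used.

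Adherens junction and desmosome genes moved in both directions. Of 24 tested genes, 8 were raised and 4 lowered, with a median of 0.20 (0.061 without the length trend). *Cdh1*, the E-cadherin gene, was at 278 and 327 ppm in the E libraries and 244 and 303 ppm in the M libraries and overlapped between states (log2 fold change −0.15, SE 0.16, adjusted p = 0.478 by limma). The 95% interval of its log2 fold change ran from −0.51 to 0.22, so in the main setting a fall by over 1.5-fold at the level of RNA lay outside it. Over the 19 alternatives the log2 fold change itself ran from −0.45 to 0.0075, and no intervals were computed for them. Its partner *Ctnnb1* was at 931 and 805 ppm in the E libraries and 983 and 913 ppm in the M libraries (limma log2 fold change 0.13, adjusted p = 0.537, and a log2 fold change of −0.17 with library totals). N-cadherin (*Cdh2*) was at 2.89 and 4.08 ppm in the E libraries and 12.9 and 12.8 ppm in the M libraries (log2 fold change 1.87, SE 0.21, adjusted p = 0.000467 by limma). Plakoglobin (*Jup*) and the plakophilins *Pkp1* and *Pkp2*, plaque proteins of the desmosome, rose by 1.49, 2.03 and 1.68 on the log2 scale, and the nectin *Pvrl3* was at 44.1 and 37.6 ppm in the E libraries and 233 and 231 ppm in the M libraries (log2 fold change 2.51, SE 0.13, adjusted p = 1.93e-05 by limma). The desmosomal cadherin *Dsg3* rose from 0.291 and 0.468 to 5.34 and 7.37 ppm (limma log2 fold change 3.76, adjusted p = 7.63e-05), while desmoplakin (*Dsp*) did not pass the test (limma log2 fold change −0.18, adjusted p = 0.333). The 4 lowered genes were *Cdh13* and the proteins that link the plaque to the cornified layer or stabilise it, periplakin (*Ppl*), envoplakin (*Evpl*) and *Perp*. *Ppl* was at 169.7 and 203 ppm in the E libraries and 6.25 and 9.09 ppm in the M libraries (log2 fold change −4.60, SE 0.20, adjusted p = 9.79e-06 by limma). The call did not hold for *Cdh13* without M replicate 2 (adjusted p = 0.0171).

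Few keratins were called, with 2 of 14 tested members raised and 2 lowered and a median of −0.21 (−0.047 without the length trend). That is 14.3% each, against 8.58% and 8.39% of all genes tested. The basal keratin *Krt14* was at 315 and 223 ppm in the E libraries and 666 and 755 ppm in the M libraries (log2 fold change 1.42, SE 0.18, adjusted p = 0.00094 by limma) and *Krt17* was raised from a low level (0.980 and 0.576 to 4.22 and 3.62 ppm). The simple keratins of luminal cells stayed within 2-fold. *Krt8* was at 223 and 181 ppm in the E libraries and 315 and 323 ppm in the M libraries (limma log2 fold change 0.67, adjusted p = 0.00919), higher in both M libraries, *Krt18* at 879.6 and 611 ppm in the E libraries and 589 and 549.8 ppm in the M libraries (limma log2 fold change −0.37, adjusted p = 0.167) and *Krt7* at 1372 and 1446 ppm in the E libraries and 1586 and 1583 ppm in the M libraries (limma log2 fold change 0.17, adjusted p = 0.416). Summed over the list, keratin coverage was 2873 and 2585 ppm in E and 3253 and 3314 ppm in M. The lowered members were *Krt10* and *Krt15* (−1.27 and −2.16). Calls that did not hold were those of *Krt14* without M replicate 1 (adjusted p = 0.0103) or without M replicate 2 (adjusted p = 0.0153), *Krt17* without M replicate 1 (adjusted p = 0.0256) or without M replicate 2 (adjusted p = 0.0181), *Krt10* under 7 of the 19 alternatives (adjusted p = 0.039 without M replicate 1, adjusted p = 0.0249 without M replicate 2, adjusted p = 0.0124 without RE replicate 1, adjusted p = 0.0122 without RE replicate 2) and *Krt15* under 7 of the 18 alternatives that tested it (adjusted p = 0.0416 without M replicate 1, adjusted p = 0.0262 without M replicate 2, adjusted p = 0.0158 without RE replicate 1, adjusted p = 0.0154 without RE replicate 2). With either M library left out 0 members were raised and 0 lowered, with either RE library left out 0 were lowered, and without E replicate 2, 4 were lowered. Keratins share sequence with near-identical relatives, and only uniquely mapped reads were counted, so their levels are uncertain.

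**Figure D3:**
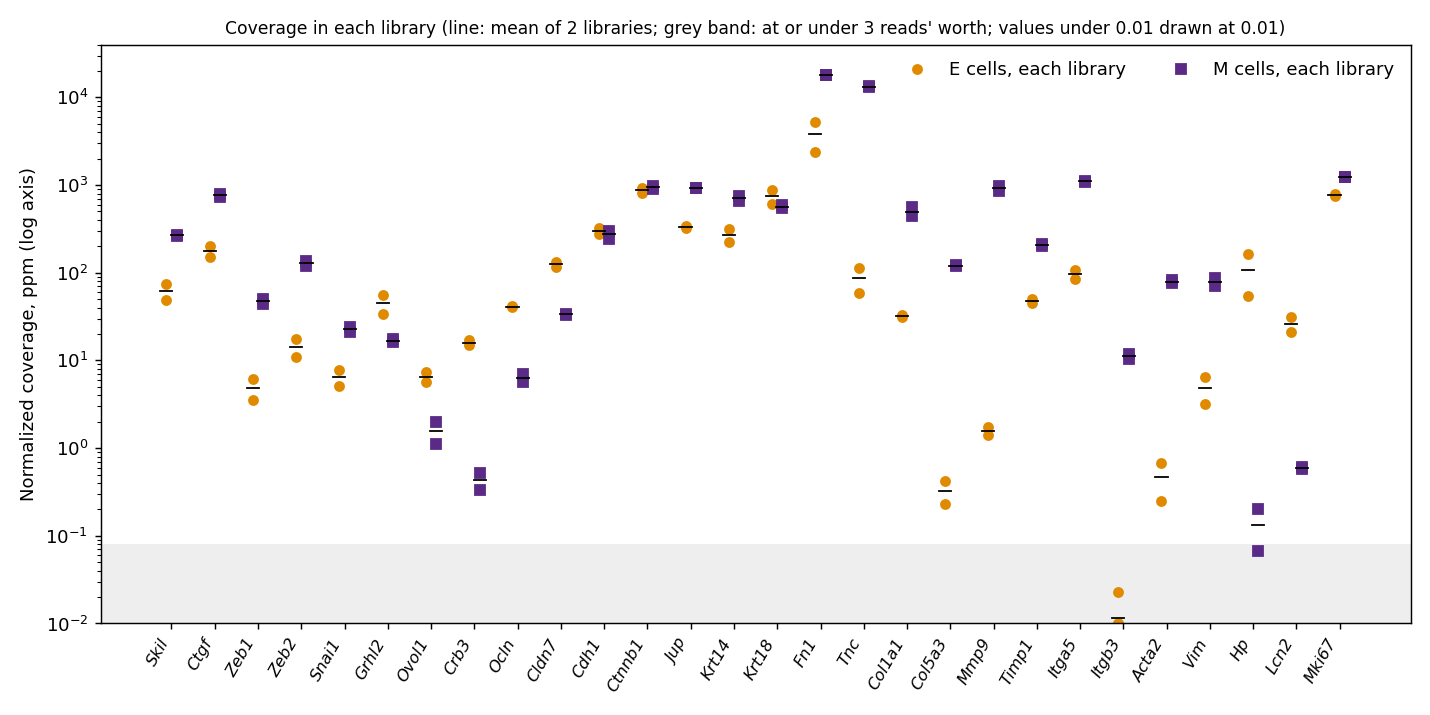
Normalized coverage in ppm (log axis) of 28 genes in each E library (circles) and each M library (squares), with black lines at the means of 2 libraries and the grey band at or under 3 reads' worth. *Cdh1*, *Ctnnb1* and *Krt18* lie close together in both states, while *Tnc*, *Mmp9* and *Acta2* rise and *Crb3*, *Hp* and *Lcn2* fall by over 10-fold.

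Collagens were the list with the largest share of raised members. Of 24 tested chains, 16 were raised and 6 lowered, with a median log2 fold change of 2.35 (2.20 without the length trend). The fibrillar chains rose together. *Col1a1* was at 31.6 and 32.8 ppm in the E libraries and 555 and 438 ppm in the M libraries (log2 fold change 3.93, SE 0.18, adjusted p = 1.38e-05 by limma), *Col1a2* at 19.5 and 19.6 ppm in the E libraries and 93.5 and 108 ppm in the M libraries (log2 fold change 2.35, SE 0.18, adjusted p = 7.8e-05 by limma), and *Col5a1* and *Col3a1* rose by 3.75 and 2.90 on the log2 scale from levels near 1 ppm or below. *Col5a3*, a chain of collagen V, was at 0.231 and 0.417 ppm in the E libraries and 123 and 119 ppm in the M libraries (log2 fold change 8.19, SE 0.25, adjusted p = 7.7e-06 by limma), and *Col27a1* at 0.343 and 0.104 ppm in the E libraries and 54.8 and 65.8 ppm in the M libraries (log2 fold change 7.64, SE 0.36, adjusted p = 1.38e-05 by limma). Both went from a few reads' worth to well covered genes. Type IV collagen of basement membranes split by chain, with *Col4a3* and *Col4a4* raised (5.46 and 4.71) and *Col4a5* and *Col4a6* lowered (−1.38 and −1.95), while *Col4a1* and *Col4a2* were below the coverage filter. *Col7a1*, the anchoring fibril chain of the epidermal junction, was raised (2.95), as was *Col12a1* (2.83). Of collagen VI, *Col6a1* was at 134 and 140.2 ppm in the E libraries and 25.2 and 19.2 ppm in the M libraries (log2 fold change −2.63, SE 0.20, adjusted p = 7.58e-05 by limma), *Col6a2* fell by 3.01 on the log2 scale, and *Col6a3* was not called (limma log2 fold change 0.41, adjusted p = 0.249). Per kilobase of transcript, *Col6a1* was the best covered of the 3 chains compared in E (33.4 ppm per kb, against 5.43 for *Col1a1* and 28.9 for *Col18a1*), and *Col1a1* in M (83.8, against 5.42 for *Col6a1* and 63.5 for *Col18a1*). Without M replicate 2, 10 members were raised. Among these genes, calls did not hold for *Col12a1* without M replicate 2 (adjusted p = 0.0122) and *Col4a6* without M replicate 1 (adjusted p = 0.0188).

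Matrix glycoproteins held more coverage in M than any other list. Of their 33 tested genes 17 were raised and 4 lowered (median 1.31). All 40 members with values, 7 of them below the coverage filter, summed to 9701 and 16041 ppm in E and 50035 and 50480 ppm in M. *Fn1* and *Tnc*, given above, made up most of the difference. *Postn*, a matricellular protein of wounds and tumours, was at 123 and 109.6 ppm in the E libraries and 2154 and 2362 ppm in the M libraries (log2 fold change 4.28, SE 0.23, adjusted p = 1.93e-05 by limma). *Has2*, which makes hyaluronan, was at 6.26 and 5.41 ppm in the E libraries and 192 and 165 ppm in the M libraries (log2 fold change 4.91, SE 0.17, adjusted p = 9.2e-06 by limma). *Sparc*, a collagen-binding protein, was at 227 and 238 ppm in the E libraries and 1102 and 1051 ppm in the M libraries (log2 fold change 2.21, SE 0.13, adjusted p = 2.73e-05 by limma). *Lama3* and *Lamb3*, chains of the laminin of hemidesmosomes, rose by 2.26 and 1.57 on the log2 scale. *Lama5*, the main alpha chain of epithelial basement membrane, was lower in both M libraries (1612 and 3000.4 against 957 and 968 ppm) but was not called (log2 fold change −1.19, SE 0.27, adjusted p = 0.011 by limma), although it was under 6 of the 19 alternatives, among them the removed length trend and without E replicate 1 (log2 fold change −1.64, adjusted p = 1.52e-08 without E replicate 1). The lowered members were *Fbln1* (−4.57), *Tnxb*, *Dcn* and *Thbs4*, all at under 5 ppm in E, and 2 were lowered with either M library left out. With other settings or fewer libraries, calls were lost for *Thbs4* under 7 of the 16 alternatives that tested it (adjusted p = 0.0432 without M replicate 1, adjusted p = 0.0198 without M replicate 2, adjusted p = 0.0124 without RE replicate 1, adjusted p = 0.0121 without RE replicate 2) and *Dcn* under 5 of the 18 alternatives that tested it (adjusted p = 0.0396 without M replicate 1, adjusted p = 0.0339 without M replicate 2).

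Enzymes that mature and crosslink collagen followed the chains. Of 18 tested genes, 10 were raised and 2 lowered (median 1.24). *Loxl3*, a lysyl oxidase that crosslinks collagen and elastin, was at 6.40 and 6.73 ppm in the E libraries and 91.4 and 79.3 ppm in the M libraries (log2 fold change 3.68, SE 0.14, adjusted p = 9.2e-06 by limma). *Loxl2* was at the floor in E and at 2.29 and 2.23 ppm in M, at least 30.6-fold higher, and the tolloid-like protease *Tll1* likewise at 13.9 and 12.5 ppm, at least 179-fold higher. The lysyl hydroxylases *Plod1*, *Plod2* and *Plod3* rose by 1.36, 1.89 and 1.12 on the log2 scale. *Serpinh1*, the collagen chaperone, had a log2 fold change of 0.97, just under the threshold and called without E replicate 2 (log2 fold change 1.23, adjusted p = 1.12e-07 without E replicate 2). The lowered members were *Loxl4* (−1.95) and the transglutaminase *Tgm2*, at 460.3 and 486 ppm in the E libraries and 196 and 188 ppm in the M libraries (log2 fold change −1.30, SE 0.13, adjusted p = 0.000269 by limma). Without M replicate 2, 6 members were raised, and with either M or either RE library left out 1 member was lowered. Calls were lost for *Plod3* under 3 of the 19 alternatives (adjusted p = 0.0102 without M replicate 1, adjusted p = 0.0102 without M replicate 2) and *Loxl4* under 5 of the 19 alternatives (adjusted p = 0.0372 without M replicate 1, adjusted p = 0.0329 without M replicate 2, adjusted p = 0.0123 without RE replicate 1, adjusted p = 0.0123 without RE replicate 2).

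Proteases that open the matrix rose beside it. Of 30 tested matrix proteases and inhibitors, 15 were raised and 1 lowered (median 1.27). *Mmp9* and *Adamts4* led, and their relative *Adamts12* was at the floor in E and at 4.76 and 5.40 ppm in M, at least 68.8-fold higher. *Mmp13*, a collagenase, was at 0.789 and 0.375 ppm in the E libraries and 17.98 and 12.4 ppm in the M libraries (log2 fold change 4.53, SE 0.36, adjusted p = 9.76e-05 by limma), and the stromelysin *Mmp10* at 1.63 and 1.24 ppm in the E libraries and 19.4 and 15.8 ppm in the M libraries (log2 fold change 3.53, SE 0.26, adjusted p = 7.56e-05 by limma). *Plau*, the urokinase gene, rose by 1.98 on the log2 scale, and *Timp1*, the inhibitor of MMPs, was at 49.98 and 45.6 ppm in the E libraries and 199.7 and 212 ppm in the M libraries (log2 fold change 2.11, SE 0.13, adjusted p = 3.47e-05 by limma). The membrane collagenase *Mmp14* was higher in both M libraries but under the threshold (limma log2 fold change 0.85, adjusted p = 0.00201), and *Mmp2* did not pass the test (limma log2 fold change 0.41, adjusted p = 0.172). The membrane type *Mmp15* was the 1 lowered member, at 8.64 and 6.14 ppm in the E libraries and 0.886 and 0.730 ppm in the M libraries (log2 fold change −3.03, SE 0.23, adjusted p = 7.74e-05 by limma).

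The fibronectin receptor subunits *Itga5* and *Itgb1* were raised, and collagen receptor subunits moved both ways. Of 17 tested subunits 8 were raised and 2 lowered (median 0.90, and 0.62 without the length trend). *Itga5*, the alpha subunit of the fibronectin receptor, was at 85.9 and 106 ppm in the E libraries and 1082 and 1119.7 ppm in the M libraries (log2 fold change 3.53, SE 0.15, adjusted p = 9.79e-06 by limma), and its partner *Itgb1* at 784 and 843 ppm in the E libraries and 2473 and 2317 ppm in the M libraries (log2 fold change 1.56, SE 0.15, adjusted p = 0.000208 by limma). *Itga2*, a collagen receptor subunit, was at 1.69 and 4.94 ppm in the E libraries and 181 and 214 ppm in the M libraries (log2 fold change 6.03, SE 0.42, adjusted p = 5.78e-05 by limma). The subunits of the αvβ3 receptor rose together, with *Itgav* at 49.4 and 87.8 ppm in the E libraries and 609.8 and 607 ppm in the M libraries (log2 fold change 3.21, SE 0.25, adjusted p = 8.28e-05 by limma) and *Itgb3* at the floor in E and at 10.5 and 11.8 ppm in M, at least 151-fold higher. The laminin receptor subunit *Itgb4* did not pass the test (limma log2 fold change 0.51, adjusted p = 0.0452). The lowered members were *Itga10*, which also binds collagen (−1.34), and the leukocyte subunit *Itgb2*, at 44.1 and 41.0 ppm in the E libraries and 19.2 and 11.9 ppm in the M libraries (limma log2 fold change −1.49, adjusted p = 0.0019). Raised members numbered 4 without M replicate 1 and 5 without M replicate 2, and lowered members 1 and 0. Other settings ended the calls for *Itgb2* without M replicate 2 (adjusted p = 0.0147) and *Itga10* without M replicate 1 (adjusted p = 0.0359) or without M replicate 2 (adjusted p = 0.0117).

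All calls among actin and contractile genes were rises. Of 37 tested actin and contractile genes, 22 were raised and 0 lowered, with a median of 1.35, and 32 had both M libraries above both E libraries, where 35.5% of all genes did, and 2 had both below. The muscle actins *Acta2*, *Acta1* and *Actg2* rose by 7.24, 4.22 and 5.30 on the log2 scale, from under 1 ppm in E. They are near-identical paralogs, so their split of unique reads is uncertain. The smooth muscle light chain *Myl9* was at 0.0768 and 0.220 ppm in the E libraries and 5.03 and 7.04 ppm in the M libraries (log2 fold change 4.67, SE 0.41, adjusted p = 0.000151 by limma). *Vim*, the intermediate filament of mesenchymal cells, was at 6.52 and 3.15 ppm in the E libraries and 86.4 and 70.9 ppm in the M libraries (log2 fold change 4.08, SE 0.31, adjusted p = 7.93e-05 by limma). Focal adhesion genes rose with them, vinculin (*Vcl*) from 88.5 and 135 to 601 and 649 ppm (log2 fold change 2.51, SE 0.20, adjusted p = 0.000102 by limma) and zyxin (*Zyx*) from 209 and 274 to 1082 and 1024 ppm (log2 fold change 2.14, SE 0.16, adjusted p = 7.96e-05 by limma). Not every smooth muscle gene followed. *Tagln* was at 2.09 and 2.38 ppm in the E libraries and 4.60 and 5.66 ppm in the M libraries (limma log2 fold change 1.16, adjusted p = 0.004), and *Cnn1*, a late contractile marker, stayed near the floor at 0.121 and 0.207 ppm in the E libraries and 0.201 and 0.171 ppm in the M libraries (limma log2 fold change 0.13, adjusted p = 0.764). The cytoplasmic actin *Actb* was higher in both M libraries and not called (limma log2 fold change 0.63, adjusted p = 0.0173). Without M replicate 1, 14 members were raised. The call was lost for *Tagln* under 8 of the 19 alternatives (adjusted p = 0.0231 without M replicate 1, adjusted p = 0.0501 without M replicate 2, adjusted p = 0.0146 without RE replicate 1, adjusted p = 0.0145 without RE replicate 2).

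**Figure D4:**
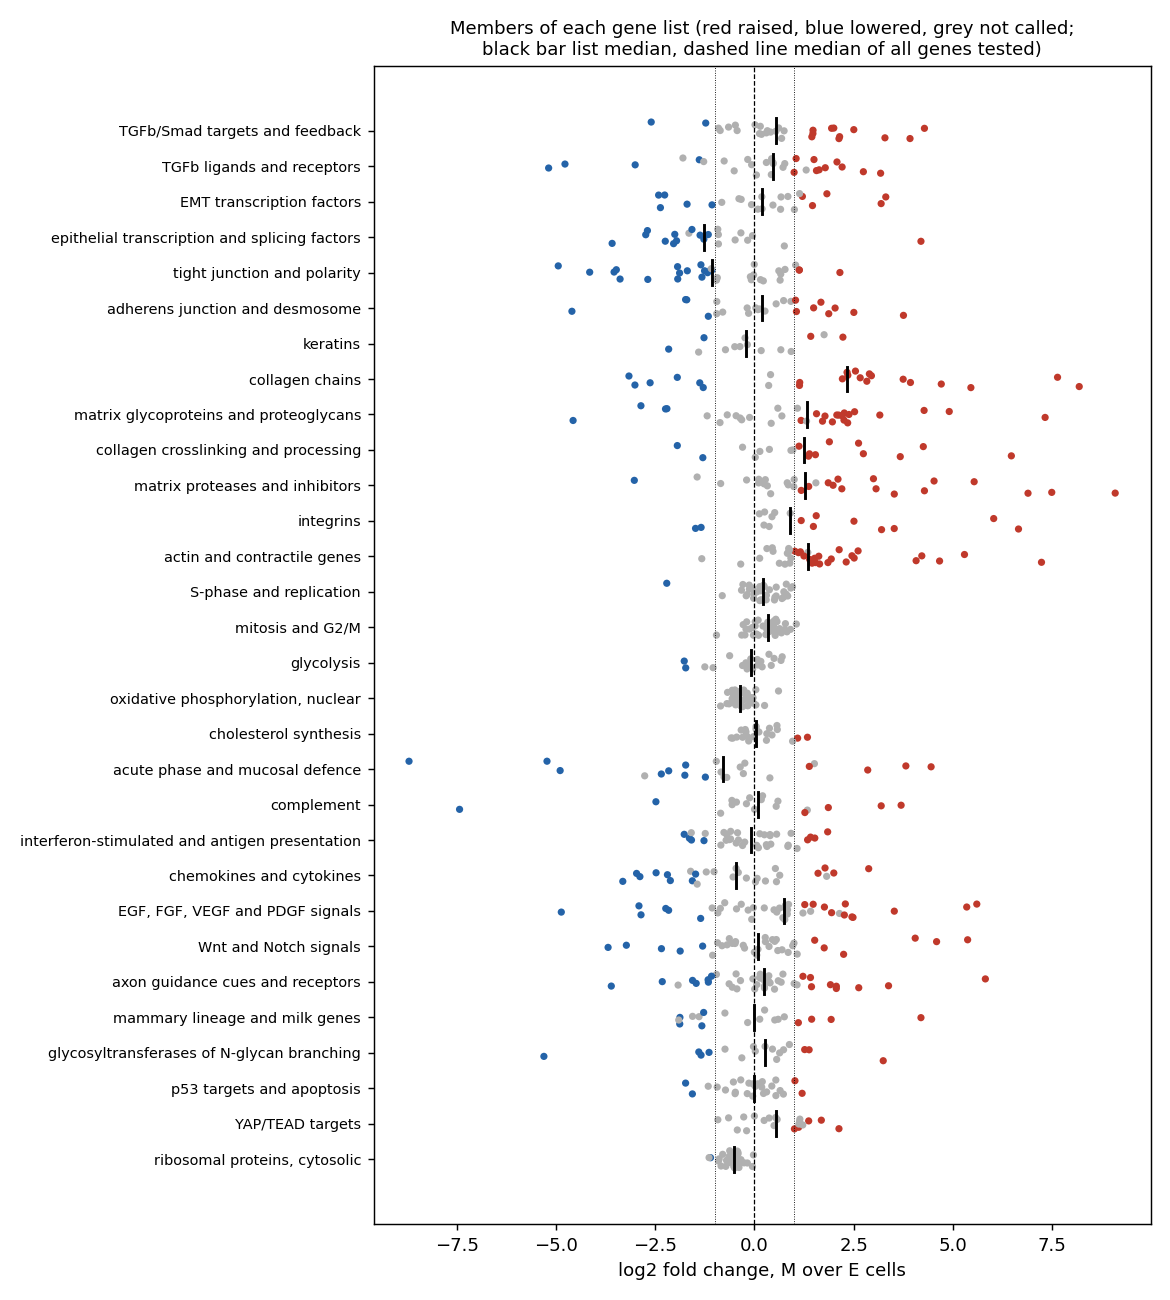
Log2 fold change of M over E cells for every tested member of 30 gene lists, with red for raised, blue for lowered and grey for not called, the list median as a black bar and the median of all genes dashed. Collagens, actin and contractile genes and matrix proteases lie mostly to the right, epithelial factors and tight junction genes to the left, and cell-cycle, oxidative phosphorylation and ribosomal genes mostly within 2-fold.

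Genes of the cell cycle were not called apart from 1. Of 35 S-phase and replication genes, 0 were raised and *E2f2* was lowered, and of 37 genes of mitosis and G2/M 0 were called in either direction. Their medians were 0.23 and 0.34 (0.17 for mitosis without the length trend). With library totals they were −0.075 and 0.036, where the median of all genes was −0.29. With TMM scaling the mitotic genes still leaned upwards, as 23 of 37 had both M libraries above both E libraries against 35.5% of all genes. The proliferation marker *Mki67* was at 745 and 798 ppm in the E libraries and 1242 and 1228 ppm in the M libraries (log2 fold change 0.68, SE 0.14, adjusted p = 0.00813 by limma), and the topoisomerase *Top2a* at 1272 and 1142 ppm in the E libraries and 1819.9 and 1585 ppm in the M libraries (log2 fold change 0.50, SE 0.16, adjusted p = 0.0422 by limma), both higher in each M library and within 2-fold. *E2f2*, a transcription factor of S-phase entry, was at 21.3 and 21.1 ppm in the E libraries and 3.70 and 5.46 ppm in the M libraries (log2 fold change −2.21, SE 0.21, adjusted p = 0.000213 by limma). At a fold change of 1.5, 3 S-phase and 5 mitotic members were raised, and 2 and 1 were lowered. Of all 13893 genes tested, 1764 were raised and 1544 lowered at that setting. Without E replicate 1 or without E replicate 2, 3 and 2 S-phase members were raised, and 1 mitotic member in each case. The count at an unadjusted p below 0.05 was 15 of 35 and 16 of 37. The share of all genes at that cut was not counted, so no excess can be read from these numbers.

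Energy metabolism and ribosomal proteins stayed within 2-fold nearly throughout, but oxidative phosphorylation and ribosomal genes leaned downwards. Of 40 nuclear genes of oxidative phosphorylation 0 were called, and 20 had an unadjusted p below 0.05, a cut at which all genes were not counted. Both M libraries lay below both E libraries in 24 and above in 2, against 35% and 35.5% of all genes. The median of the 40 genes was −0.36. These are short transcripts, and their median was −0.034 without the length trend and −0.081 without E replicate 1. Of 22 glycolytic genes, *Aldoc* and the pyruvate dehydrogenase kinase *Pdk1* were lowered (9.09%, near the 8.39% of all genes tested), and 0 were raised (median −0.099, and 0.061 without the length trend). With either M library left out, 1 was lowered, and without E replicate 2, 1 was raised. *Pdk1*, a hypoxia-responsive gene, was at 19.8 and 14.4 ppm in the E libraries and 5.11 and 4.65 ppm in the M libraries (log2 fold change −1.77, SE 0.20, adjusted p = 0.000446 by limma). Ribosomal proteins had 1 lowered member of 33, *Rps6*, and a median of −0.53 (−0.19 without the length trend). Both M libraries lay below both E libraries in 30 of the 33 and above in 0. An unadjusted p below 0.05 was found for 25, again without the share of all genes. Many ribosomal genes have near-identical copies, so their unique coverage is low and their values are uncertain. Calls that did not hold were those of *Rps6* under 8 of the 19 alternatives (log2 fold change −0.90 without E replicate 1, adjusted p = 0.038 without M replicate 1, adjusted p = 0.0285 without M replicate 2, adjusted p = 0.0123 without RE replicate 1, adjusted p = 0.0123 without RE replicate 2) and *Aldoc* without M replicate 1 (adjusted p = 0.0113) or without M replicate 2 (adjusted p = 0.0105), and 7 ribosomal members were lowered without E replicate 2.

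Several secreted defence proteins were lowered. Of 22 tested acute phase and mucosal defence genes, 8 were lowered and 4 raised, with a median of −0.80 (−0.51 without the length trend). *Lcn2*, the siderophore-binding lipocalin, was at 31.3 and 21.2 ppm in the E libraries and 0.601 and 0.574 ppm in the M libraries (log2 fold change −5.23, SE 0.22, adjusted p = 9.79e-06 by limma). *Steap4*, a metalloreductase, was at 30.9 and 21.8 ppm in the E libraries and 0.710 and 0.838 ppm in the M libraries (log2 fold change −4.90, SE 0.29, adjusted p = 2.75e-05 by limma), and the whey acidic protein family gene *Wfdc2* at 346 and 239 ppm in the E libraries and 65.6 and 62.9 ppm in the M libraries (log2 fold change −2.16, SE 0.18, adjusted p = 0.00013 by limma). *Hp* and *Cp*, given above, belong here, and the antiprotease *Slpi* was lowered by 1.76. The raised members were *Serpina3h* and *Serpina3g* of the serpin A3 cluster, *Chi3l1* and the LPS co-receptor *Cd14*. *Serpina3h* was at 0.533 and 0.627 ppm in the E libraries and 13.0 and 16.7 ppm in the M libraries (log2 fold change 4.46, SE 0.23, adjusted p = 1.83e-05 by limma), but the cluster holds near-identical copies, so its level is uncertain. The list as a whole went from 2469.7 and 1693 ppm in E to 672 and 552 ppm in M. Lowered members numbered 5 without M replicate 1 and 4 without M replicate 2, and raised members 2 with either left out. Among these genes, calls did not hold for *Slpi* without M replicate 1 (adjusted p = 0.0215) or without M replicate 2 (adjusted p = 0.0104), *Chi3l1* without M replicate 1 (adjusted p = 0.0115) or without M replicate 2 (adjusted p = 0.021) and *Cd14* under 6 of the 19 alternatives (adjusted p = 0.0347 without M replicate 1, adjusted p = 0.0292 without M replicate 2, adjusted p = 0.0113 without RE replicate 1, adjusted p = 0.0114 without RE replicate 2).

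Complement genes moved both ways, with 4 of 18 tested members raised and 2 lowered (median 0.087). The shares were 22.2% and 11.1%, against 8.58% and 8.39% of all genes tested. *Clu*, which encodes the chaperone clusterin, was at 117 and 98.5 ppm in the E libraries and 1439.9 and 1352 ppm in the M libraries (log2 fold change 3.70, SE 0.14, adjusted p = 9.34e-06 by limma), more than 10-fold higher in each M library. Among the lowered members, *C1rl* fell from 7.20 and 5.61 to 1.004 and 1.11 ppm (log2 fold change −2.48, SE 0.21, adjusted p = 0.000139 by limma). The others raised were *C1qtnf6*, *Masp1* and *Serping1*, and with either M library left out 2 members were raised. The central component *C3* was lower in both M libraries at 932 and 957 ppm in the E libraries and 664 and 715 ppm in the M libraries and was not called (limma log2 fold change −0.45, adjusted p = 0.0332). With other settings or fewer libraries, calls were lost for *Masp1* under 13 of the 19 alternatives (adjusted p = 0.0817 without M replicate 1, adjusted p = 0.0258 without M replicate 2, adjusted p = 0.0162 without RE replicate 1, adjusted p = 0.0159 without RE replicate 2) and *Serping1* under 4 of the 19 alternatives (adjusted p = 0.0122 without M replicate 1, adjusted p = 0.0357 without M replicate 2).

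Neutrophil chemokines were lowered, and a stromal chemokine was raised. Of 27 tested chemokines and cytokines, 8 were lowered and 4 raised, with a median of −0.46 (−0.19 without the length trend). Ligands of the neutrophil receptor CXCR2 were among the lowered. *Cxcl5* was at 93.7 and 42.4 ppm in the E libraries and 8.70 and 7.25 ppm in the M libraries (log2 fold change −2.97, SE 0.35, adjusted p = 0.000608 by limma), and *Cxcl1*, *Cxcl2* and *Cxcl3* fell by 2.12, 2.19 and 3.32 on the log2 scale. *Csf3*, the granulocyte growth factor G-CSF, was at 32.0 and 26.0 ppm in the E libraries and 4.89 and 2.96 ppm in the M libraries (log2 fold change −2.89, SE 0.27, adjusted p = 0.000221 by limma). *Cxcl12*, made by stromal cells, was at 4.25 and 8.13 ppm in the E libraries and 44.9 and 43.1 ppm in the M libraries (log2 fold change 2.88, SE 0.28, adjusted p = 0.000241 by limma), and the membrane-bound chemokine *Cx3cl1* rose by 1.603. *Il6* was higher in both M libraries but at under 1 ppm and not called (limma log2 fold change 1.82, adjusted p = 0.0124, but log2 fold change 2.23, adjusted p = 0.000969 without E replicate 1). With either M library left out, 2 members were raised. The call did not hold for *Cxcl2* with a pseudocount of 1 (log2 fold change −0.97).

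Interferon-stimulated and antigen presentation genes had 4 raised and 4 lowered members of 36 (median −0.095). That is 11.1% each, near the 8.58% raised and 8.39% lowered of all genes tested. Of the Ifit genes, which bind foreign RNA, *Ifit1* was lowered from 10.9 and 12.5 to 3.92 and 3.46 ppm (log2 fold change −1.64, SE 0.18, adjusted p = 0.000476 by limma). *Ifit3* was lowered by 1.77 on the log2 scale, and *Ifit2* was not called. The other lowered members were *Oasl1* and *Isg15*. The peptide loading factor *Tapbp* and the immunoproteasome subunit *Psmb10* were raised (1.34 and 1.85), with *Oasl2* and *Gbp3*. The class I heavy chain *H2-K1* did not pass the test (limma log2 fold change 0.39, adjusted p = 0.0819). Raised members numbered 1 without M replicate 1 and 2 without M replicate 2, and lowered members 2, 1 and, without E replicate 1, 7. Calls were lost for *Psmb10* without M replicate 1 (adjusted p = 0.0134) or without M replicate 2 (adjusted p = 0.011), *Oasl2* without M replicate 1 (adjusted p = 0.0109), *Gbp3* under 6 of the 19 alternatives (adjusted p = 0.0363 without M replicate 1, adjusted p = 0.0247 without M replicate 2, adjusted p = 0.0112 without RE replicate 1, adjusted p = 0.0112 without RE replicate 2), *Isg15* under 8 of the 19 alternatives (adjusted p = 0.0339 without M replicate 1, adjusted p = 0.0226 without M replicate 2, adjusted p = 0.0108 without RE replicate 1, adjusted p = 0.0106 without RE replicate 2), *Oasl1* without M replicate 2 (adjusted p = 0.0134) and *Ifit3* under 3 of the 19 alternatives (adjusted p = 0.0162 without M replicate 1, adjusted p = 0.0199 without M replicate 2).

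**Figure D5:**
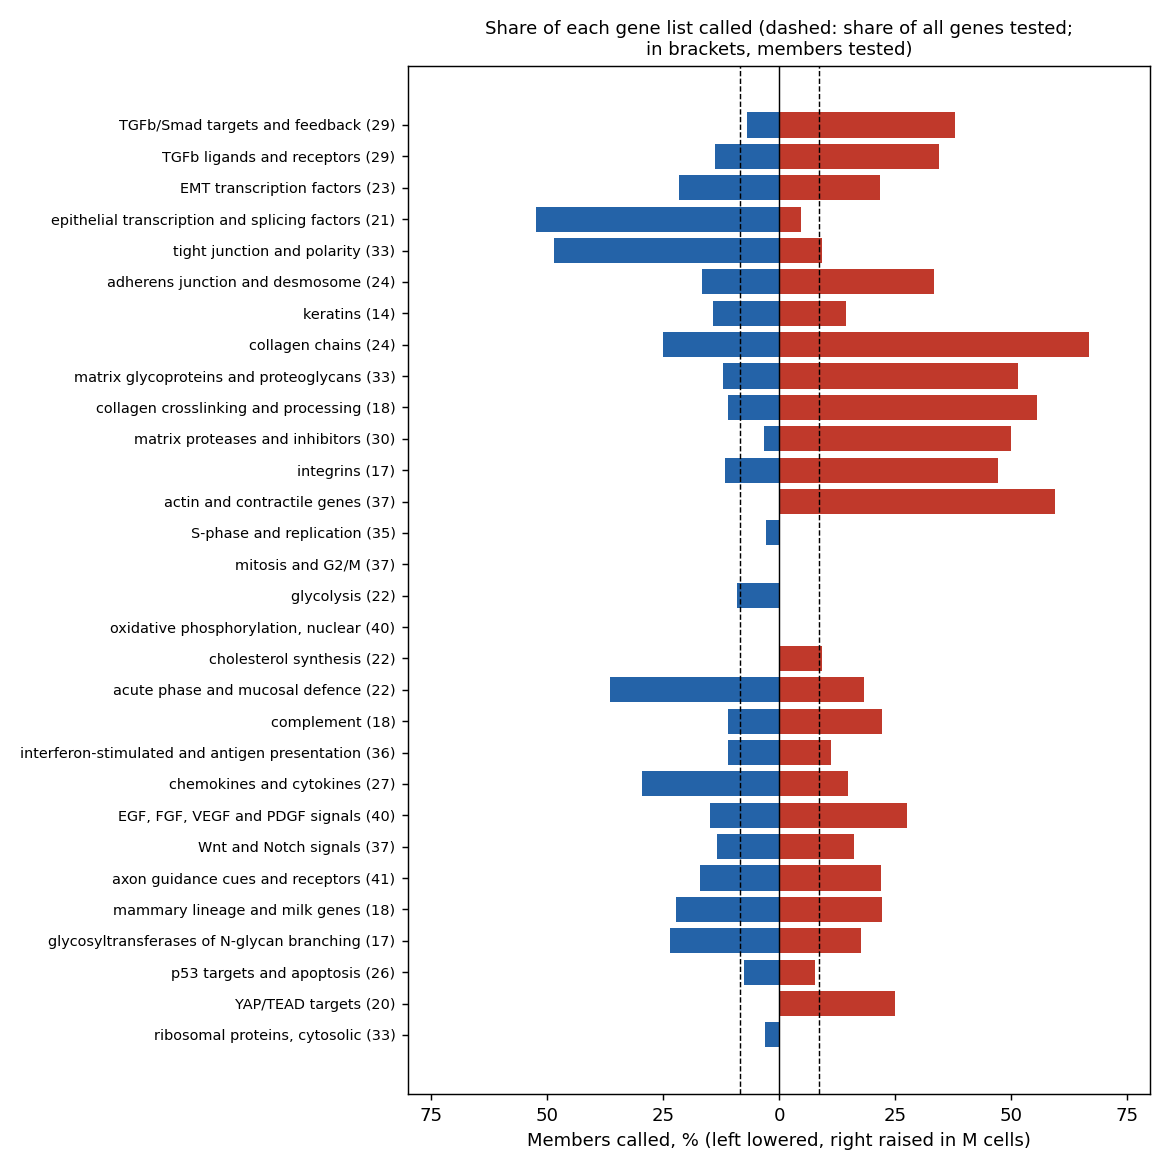
Share of the tested members of each gene list that were lowered (blue, left) or raised (red, right) in M cells, in percent, with the shares of all genes tested dashed (8.39% lowered and 8.58% raised) and the number of members tested in brackets. Raised shares are largest for collagens (66.7%), actin and contractile genes (59.5%) and crosslinking enzymes (55.6%), and lowered shares for epithelial factors (52.4%) and tight junction genes (48.5%).

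Growth factors and their receptors moved in both directions. Of 40 tested genes of the EGF, FGF, VEGF and PDGF families and their relatives, 11 were raised and 6 lowered, with a median of 0.74 (0.56 without the length trend). *Ret*, a receptor tyrosine kinase for GDNF ligands, was at 0.507 and 0.643 ppm in the E libraries and 32.5 and 32.8 ppm in the M libraries (log2 fold change 5.61, SE 0.22, adjusted p = 9.2e-06 by limma). *Igf1*, insulin-like growth factor 1, was at 0.304 and 0.348 ppm in the E libraries and 16.9 and 17.7 ppm in the M libraries (log2 fold change 5.35, SE 0.21, adjusted p = 9.2e-06 by limma). *Hgf*, a stromal ligand of *Met*, was at the floor in E and at 1.31 and 1.32 ppm in M, at least 17.9-fold higher. The PDGF ligands *Pdgfa*, *Pdgfb* and *Pdgfc* rose by 2.29, 1.95 and 2.27 on the log2 scale with their receptor *Pdgfrb* (2.46), and *Vegfc* was at 46.2 and 40.2 ppm in the E libraries and 253 and 232 ppm in the M libraries (log2 fold change 2.49, SE 0.16, adjusted p = 3.89e-05 by limma). Among the receptors of epithelial growth factors, *Erbb3* was lowered from 44.6 and 72.7 to 12.5 and 12.7 ppm (log2 fold change −2.16, SE 0.23, adjusted p = 0.000355 by limma), *Erbb2* did not pass the test (limma log2 fold change −0.069, adjusted p = 0.669), and *Met* was under the fold threshold (limma log2 fold change 0.63, adjusted p = 0.00809). *Fgfr1* rose (1.76) while *Fgfr2*, the receptor for FGFs from stroma, fell (−1.36). *Gas6*, the ligand of the *Axl* kinase, was at 387 and 258 ppm in the E libraries and 44.1 and 42.8 ppm in the M libraries (log2 fold change −2.86, SE 0.21, adjusted p = 6.6e-05 by limma), and *Axl* itself was not called (limma log2 fold change 0.49, adjusted p = 0.0417). Without M replicate 1, 3 members were lowered. The call was lost for *Fgfr2* without M replicate 1 (adjusted p = 0.0104).

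Notch receptors and ligands also moved both ways. Of 37 tested Wnt and Notch genes, 6 were raised and 5 lowered (median 0.089). *Notch4* was at 0.334 and 0.354 ppm in the E libraries and 16.3 and 20.7 ppm in the M libraries (log2 fold change 5.38, SE 0.24, adjusted p = 1.07e-05 by limma), whereas *Notch3* was at 28.5 and 51.3 ppm in the E libraries and 2.75 and 3.00 ppm in the M libraries (log2 fold change −3.69, SE 0.26, adjusted p = 6.52e-05 by limma) and *Notch1* fell by 1.31. Of the ligands, *Jag1* was at 13.9 and 29.9 ppm in the E libraries and 316 and 365 ppm in the M libraries (log2 fold change 4.05, SE 0.32, adjusted p = 9.2e-05 by limma), and *Dll1* at 64.1 and 59.6 ppm in the E libraries and 6.31 and 6.69 ppm in the M libraries (log2 fold change −3.23, SE 0.14, adjusted p = 9.79e-06 by limma). The Notch target *Hey1* did not pass the test (limma log2 fold change −0.48, adjusted p = 0.414). Among the Wnt genes, *Wnt11*, a ligand of the non-canonical branch, was at 1.09 and 1.46 ppm in the E libraries and 32.0 and 33.7 ppm in the M libraries (log2 fold change 4.59, SE 0.34, adjusted p = 7.32e-05 by limma), and the receptor *Fzd7* and the antagonist *Sfrp1* were lowered (−1.87 and −2.35). The canonical target *Axin2* stayed below 1 ppm (limma log2 fold change 0.28, adjusted p = 0.5). The call did not hold for *Notch1* without M replicate 1 (adjusted p = 0.0172) or without M replicate 2 (adjusted p = 0.0131).

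Enzymes of N-glycan branching had 3 raised and 4 lowered members of 17 (median 0.27). *Mgat3* encodes GnT-III, which adds the bisecting residue to N-glycans of E-cadherin and other proteins. It was at 100.2 and 76.2 ppm in the E libraries and 2.76 and 1.603 ppm in the M libraries (log2 fold change −5.31, SE 0.26, adjusted p = 1.65e-05 by limma), the largest fall of the list by over 3 log2 units. *Mgat5*, which makes the competing branch, was at 13.7 and 27.4 ppm in the E libraries and 36.0 and 35.7 ppm in the M libraries, higher in both M libraries but not called (limma log2 fold change 0.88, adjusted p = 0.044, but log2 fold change 1.38, adjusted p = 2.72e-07 without E replicate 2). The sialyltransferases split, with *St6gal1* raised (3.25) and *St3gal4* lowered (−1.40). Raised members numbered 5 without E replicate 2 and 1 without M replicate 2, and lowered members 2 with either M library left out.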

How the data were processed

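The study sequenced RNA of EpH4 cells in 6 libraries of 3 states with 2 biological replicates each, E, M and RE (cells withdrawn from TGFβ1). Reads were mapped to the mouse genome NCBI-m37 with Bowtie and TopHat, and uniquely mapped reads were kept. The deposited file holds, per gene, the summed coverage that the authors computed, in sequenced bases rather than counts (44.8% to 48.4% of the values from 1 to 400 bases are multiples of the read length of 50), so no count model was run. How reads were assigned to genes, the annotation and strandedness are not given in the sources used here. Library totals were 1931743803 and 1789125650 bases in E and 2396427835 and 2267081871 in M.

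A gene was tested if 2 or more libraries held 500 bases of it, equal to 10 reads. Values were scaled by TMM without weights (trimming 30% by ratio and 5% by level), expressed in ppm and tested as log2(ppm + 0.1) with limma 3.58.1 (R 4.3.3), fitted on all 6 libraries by state with a mean-dependent prior and Benjamini-Hochberg adjustment over all genes tested. Such fold changes understate the change of low genes. On simulated data, 53.3% of 199 genes changed by 2 on the log2 scale among 13665 were recovered. Far fewer genes changed there than the 2358 called here, and the adjustment depends on that number, so this share does not carry over. Figures were drawn with Python 3.11.15 and matplotlib 3.10.9.

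The members and the 35 gene lists were chosen with earlier results of these data known. Named genes were the 12 largest rises and falls at an average log2 level of at least 2, the 8 largest gains and losses in ppm, up to 4 called members per direction and the 2 best covered uncalled members of each list, the 5 best covered genes switched on and off, and genes that the study names. Other members were named for their role after their values were seen. Alternatives were other thresholds, scalings, filters and pseudocounts, a replicate block, array weights, removal of the GC and length trend, the fit on E and M alone and leaving out each library. Some genes that the rule picks are not reported here.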

Additional observations from a re-analysis of the deposited data

How the results depend on the processing

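Of 19 alternative settings, 0 called a gene in the opposite direction. The number of raised genes lay between 453 and 1889 and that of lowered genes between 492 and 1458 when 1 library was left out, with the lowest counts where M had 1 library, which is then assumed to vary like the other states. Scaling by library totals gave 802 raised and 1829 lowered genes. A fold of 1.5 gave 1764 raised and 1544 lowered, a pseudocount of 1 gave 1014 and 859, and removal of the GC and length trend gave 1121 and 1136, of which 952 and 948 are shared with the main result. The replicate block gave 1228 raised and 1203 lowered genes (1174 and 1190 with the trend removed). Same-numbered replicates correlated at 0.267 between E and M, 0.058 between E and RE and 0.116 between M and RE in their deviations from the group means, and the numbers were not treated as pairs. Of 230 named genes called, 129 were called under all 19 settings, 33 in all settings that tested them but with 1 or more settings in which their coverage was too low to be tested, 43 were lost under 1 to 3 and 25 under more. The genes near the floor in E, *Cdh5*, *Itgb3*, *Tll1*, *Loxl2*, *Hgf*, *Acvrl1* and *Il11*, were not tested with either M library left out. Of 37 named genes that were not called, 15 were called under some setting, among them *Krt8*, *Met*, *Mki67*, *Mmp14*, *Gata3*, *St14* and *Serpinh1* at a fold of 1.5. Among the uncalled, the log2 fold change turned sign with library totals for *Ctnnb1* at −0.17, *Krt7* at −0.13, *Cnn1* at −0.056 and *Tgfbr2* at −0.25, with the GC and length trend removed (with or without the block) for *Tgfbr1* at −0.051, *Tgfbr2* at −0.38 and *Col6a3* at −0.021 and with 1 library left out (lowest and highest value) for *Snai2* from −0.095 to 1.41, *Cnn1* from −0.10 to 0.37, *Tgfbr2* from −0.20 to 0.30 and *Cdh1* from −0.30 to 0.0075. The cause was not tested. Replicate numbers of 2 per state limit the precision, and so does depth where a gene lies near the floor. Intervals cover neither culture effects beyond these replicates nor the assignment of reads to genes.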

Other observations

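Lineage genes moved in both directions. Of 18 tested mammary lineage and milk genes, 4 were raised and 4 lowered, with a median log2 fold change of −0.019. The stem cell marker *Cd44*, the hyaluronan receptor, was at 88.6 and 157 ppm in the E libraries and 447 and 455 ppm in the M libraries (limma log2 fold change 1.93, adjusted p = 0.00081) and *Procr* at 6.95 and 7.34 ppm in the E libraries and 21.0 and 18.2 ppm in the M libraries (limma log2 fold change 1.44, adjusted p = 0.000599), while *Xdh*, a protein of milk fat secretion, was at 165 and 180.3 ppm in the E libraries and 47.3 and 46.4 ppm in the M libraries (log2 fold change −1.88, SE 0.14, adjusted p = 7e-05 by limma) and *Stat5a*, the prolactin effector, fell by 1.28. Of 20 YAP/TEAD targets and factors 5 were raised and 0 lowered (median 0.55), among them *Ctgf* and *Ankrd1* (1.37), but *Cyr61*, also a target, was at −0.65 and not called. The counts rested on both M libraries, with 1 raised without M replicate 1 and 2 without M replicate 2, against 9 without E replicate 2. Of 26 p53 targets and apoptosis genes 2 were raised (*Birc3* and *Bmf*) and 2 lowered (the survival factor *Bcl2l1* and *Perp*). That is 7.69% each, near the 8.58% and 8.39% of all genes tested. *Bcl2l1* was at 75.3 and 72.2 ppm in the E libraries and 25.7 and 24.1 ppm in the M libraries (log2 fold change −1.57, SE 0.13, adjusted p = 0.00013 by limma). Cholesterol synthesis had 2 raised of 22 (9.09%, near the 8.58% of all genes tested), among them *Hsd17b7* (1.34), and 0 lowered. Without M replicate 1, 1 lineage gene was raised and 1 lowered, without M replicate 2 they were 2 and 1, and with either RE library left out 2 were lowered. In the absence of M replicate 1, 0 p53 targets and 0 genes of cholesterol synthesis were raised. Without M replicate 2, E replicate 1 or either RE library, 1 p53 target was raised, and without E replicate 2, 4 were lowered. Cholesterol synthesis had 1 raised gene without M replicate 2, and the YAP/TEAD list 1 lowered gene without E replicate 1. Other settings ended the calls for *Cd44* without M replicate 1 (adjusted p = 0.011) or without M replicate 2 (adjusted p = 0.0112), *Procr* without M replicate 1 (adjusted p = 0.0133), *Stat5a* without M replicate 1 (adjusted p = 0.0121) or without M replicate 2 (adjusted p = 0.011), *Ankrd1* without M replicate 1 (adjusted p = 0.0103), *Birc3* with library totals (log2 fold change 0.90) or without M replicate 1 (adjusted p = 0.0125), *Bmf* under 12 of the 19 alternatives (log2 fold change 0.96 without E replicate 1, adjusted p = 0.0317 without M replicate 1, adjusted p = 0.0587 without M replicate 2, adjusted p = 0.0167 without RE replicate 1, adjusted p = 0.0163 without RE replicate 2) and *Hsd17b7* without M replicate 1 (adjusted p = 0.0121).

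Axon guidance genes changed in both directions, with 9 of 41 tested members raised and 7 lowered (median 0.25, and 0.098 without the length trend). The semaphorin *Sema7a*, which binds integrins, was at 0.231 and 0.0521 ppm in the E libraries and 13.9 and 11.5 ppm in the M libraries (log2 fold change 5.82, SE 0.39, adjusted p = 5.12e-05 by limma). The plexin *Plxnd1* was at 13.2 and 14.8 ppm in the E libraries and 147 and 146 ppm in the M libraries (log2 fold change 3.38, SE 0.13, adjusted p = 9.2e-06 by limma), and the semaphorin and VEGF co-receptors *Nrp1* and *Nrp2* rose by 1.92 and 1.44 on the log2 scale. *Ephb6*, a kinase-dead ephrin receptor, was at 64.1 and 43.5 ppm in the E libraries and 3.31 and 5.41 ppm in the M libraries (log2 fold change −3.61, SE 0.27, adjusted p = 7.59e-05 by limma), and netrin 1 (*Ntn1*) fell by 1.47. The raised members were 5 and 4 without M replicate 1 and without M replicate 2, and the lowered 2 and 3. Calls that did not hold were those of *Ntn1* without M replicate 1 (adjusted p = 0.0313) or without M replicate 2 (adjusted p = 0.0267) and *Nrp2* under 8 of the 19 alternatives (log2 fold change 0.95 without E replicate 1, adjusted p = 0.042 without M replicate 1, adjusted p = 0.0425 without M replicate 2, adjusted p = 0.0169 without RE replicate 1, adjusted p = 0.017 without RE replicate 2).

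Some genes passed between the floor and at least 1 ppm. In 42 genes both E libraries were at or under 3 reads' worth and both M libraries at 1 ppm or more, and 30 genes did the reverse. These are descriptions with no test of their own. The best covered of those switched on were *Adamts16*, the interleukin 2 receptor chain *Il2rb*, *Tll1*, *Itgb3* and *Tmem119*, with *Il2rb* at 14.7 and 13.98 ppm and *Tmem119* at 8.63 and 9.25 ppm in M and at least 194-fold and 121-fold higher. Among the best covered of those switched off were *C130090K23Rik*, the cytochrome P450 gene *Cyp2f2*, the Ras association gene *Rassf4* and the kininogen *Kng2*. *Cyp2f2* was at 21.2 and 13.6 ppm in E and at 0 in both M libraries, so E was at least 240.5-fold higher.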
